A study of Mus musculus and Homo sapiens with 12 samples.

Results

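The genes described are 10 markers of the absorptive colonocyte, the surface cell of the large intestine that takes up salt, short-chain fatty acids and water from the gut content. They are Slc26a3, Slc26a2, Slc9a3, Scnn1a, Scnn1b, Car1, Car2, Car4, Aqp8 and Krt20, chosen by name as 10 of the 21887 protein-coding genes of RefSeq GRCm38.p6 on chromosomes 1 to 19, X and Y. For each gene the window was the gene with 10 kb on either side. The data are lists of enriched sites from CUT&Tag, in which an antibody directs a transposase to cut and tag DNA beside a histone mark in isolated nuclei. The antibodies were against butyryl lysine (Kbu) and acetyl lysine (Kac) on lysine 18 of histone H3 and lysine 12 of histone H4.

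Of the 12 libraries of the series, 8 came from large intestine of male CETP-ApoB-100 transgenic mice, with tissue from 2 mice per condition, and these 8 were used. The H3K18bu and H4K12bu libraries, 2 replicates each, came by their labels from mice on a high fat, high sucrose diet that held 5% arabinoxylan, a fermentable plant fiber. The H3K18ac and H4K12ac libraries, 2 replicates each, came by their labels from mice on the same kind of diet with no fiber named. All animals carried the transgenes, and the labels of all 8 libraries name the fat and sucrose rich diet. The methods describe arabinoxylan for the whole high fat, high sucrose group and a low fat control diet for the only group without it, so the diet behind the Kac libraries was not settled by the sources used here. If the labels hold, acyl group and diet cannot be told apart in any comparison of Kbu with Kac. The tissue was whole large intestine, in which fewer cells of a type and less mark per cell cannot be told apart.

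Ion and water uptake in the colon runs through a few well known proteins. Apical exchangers bring in sodium for protons (Slc9a3) and chloride for bicarbonate (Slc26a3), carbonic anhydrases supply the protons and bicarbonate, the epithelial sodium channel (Scnn1a, Scnn1b and Scnn1g) takes up the rest of the sodium, and water follows. Microbes ferment fiber to butyrate, which colonocytes use as fuel, and butyryl-CoA is the donor for lysine butyrylation. Acetylation of H3K18 and H4K12 is known from active promoters and enhancers.

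The lists differed in length and in the height of their rows before any gene was considered. The Kbu lists held 60813 and 50675 rows for H3K18bu and 50932 and 96432 for H4K12bu. The Kac lists held 299840, 299861, 299778 and 299623 rows, each just below the limit of 300000 set by the authors. Rows that overlapped within a list were merged and are called regions. The pileup of a row is the number of extended read ends stacked at its summit, solved from the deposited fold and p. A pileup of 1, in which no read ends overlap at the summit, made up 89.9%, 90.6%, 91.4% and 89.2% of the rows in the Kbu lists. Among Kac rows it made up 72.1% and 52.0% of H3K18ac replicates 1 and 2, and 52.8% and 12.8% of H4K12ac replicates 1 and 2. The lists give no read totals. The lowest local background was 0.0146 in all 4 Kbu lists and 0.0608 to 0.147 in the Kac lists. It was the same in Kbu lists of unlike length, so it gives no depth of single Kbu libraries. With most rows at a pileup of 1, single regions in single Kbu lists are values with large counting error.

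Across the 10 windows the Kbu lists held 53, 47, 35 and 68 regions, in the order H3K18bu replicates 1 and 2 and H4K12bu replicates 1 and 2. The Kac lists held 102 and 127 regions for H3K18ac and 109 and 91 for H4K12ac. All 10 genes held at least 1 region in 7 of the 8 lists, and only Krt20 in H4K12ac replicate 2 held none. A pileup of 1 was the height of 46, 40, 31 and 58 of the Kbu regions. Among the Kac regions 25 and 21 in H3K18ac had that height, with 52 and 0 in H4K12ac. At a deposited q below 0.05 the Kbu lists kept 1, 2, 1 and 2 regions and the Kac lists 18, 36, 5 and 18. Of the Kbu regions 6, 8, 7 and 6 were 73 bp wide, the length of a single extended read end, and the others were wider. Most Kbu regions at these genes were thus low, with a height of 1. Reads were paired, and whether a wider region of that height held more than the ends of 1 read pair was not tested. Regions of height 1 made up a smaller share of the Kac regions in each list.

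**Figure D1:**
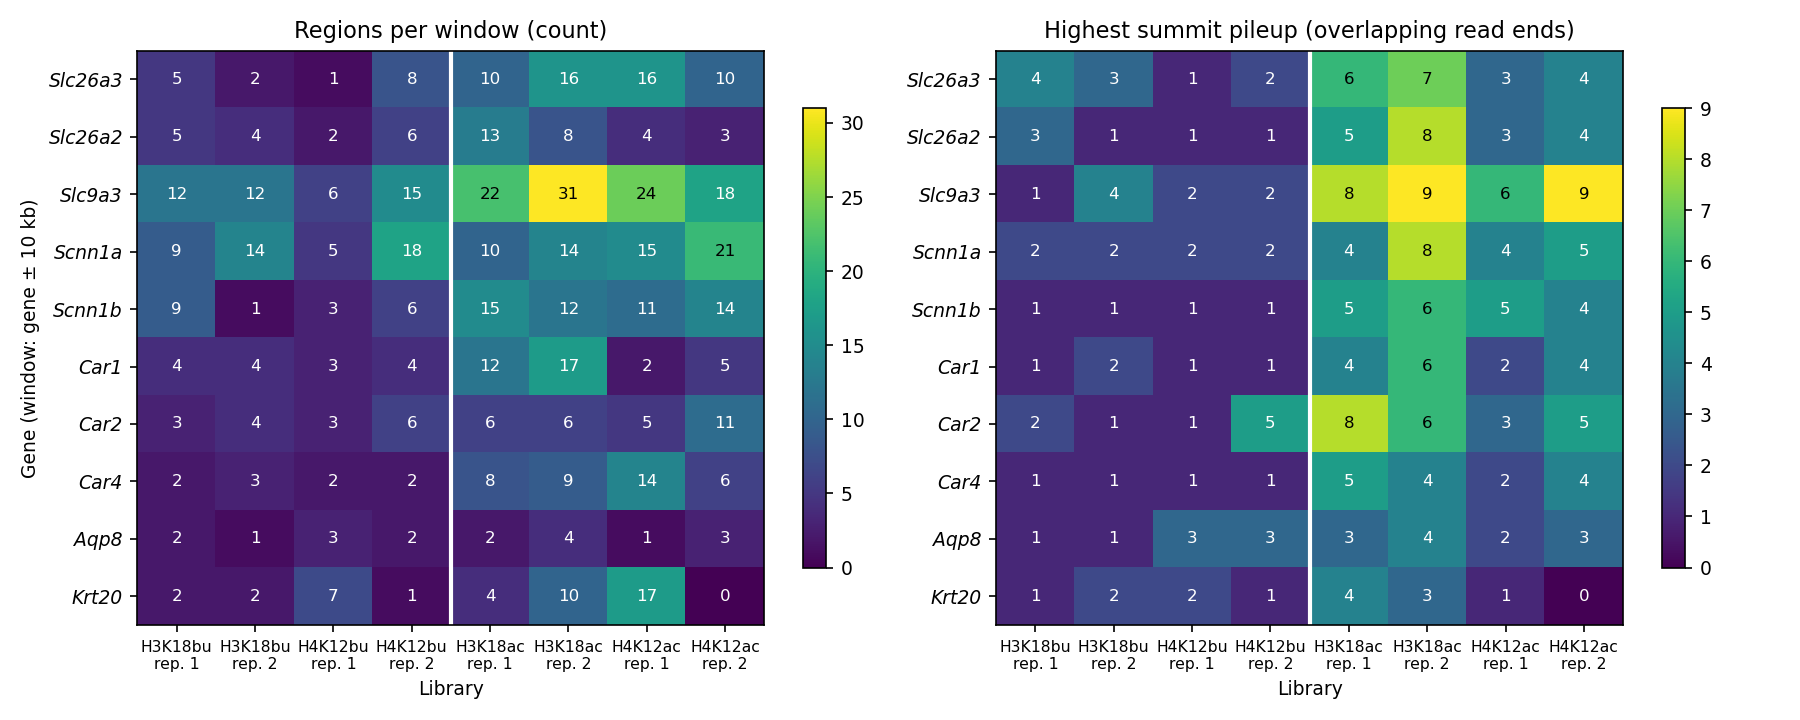
Number of merged regions (left) and highest summit pileup in overlapping read ends (right) in each of the 8 libraries (columns; white line between Kbu and Kac) for the 10 genes (rows; window of the gene ± 10 kb). Slc9a3 and Scnn1a hold the most Kbu regions, the highest Kbu pileup is 5 at Car2, and Krt20 is at 0 in H4K12ac replicate 2.

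Windows of the colonocyte genes had a median of 42.7 kb, against 37.2 kb for all genes, and a longer window has more room for a region. Per 10 kb of window, the median of the 10 genes was 0.846 and 0.866 regions in H3K18bu and 0.644 and 1.07 in H4K12bu. The median of all genes was 0.253 and 0.178 in H3K18bu and 0.276 and 0.547 in H4K12bu. In Kac the 10 genes had medians of 1.95 and 2.68 in H3K18ac and 1.91 and 1.69 in H4K12ac, against 1.55, 1.08, 1.12 and 1.53 over all genes. Of the 10 genes, 10, 9, 9 and 9 lay above the median of all genes in the Kbu lists and 8, 10, 8 and 6 in the Kac lists. These are descriptions of the lists and were given no test.

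Most regions lay inside the genes. In the Kbu lists 32, 25, 18 and 39 regions lay inside a gene more than 1 kb from its ends, 13, 15, 10 and 18 in the flanks, and 8, 7, 7 and 11 within 1 kb of a gene end or RefSeq start. In the Kac lists 54, 71, 61 and 52 lay inside, 32, 42, 40 and 26 in the flanks, and 16, 14, 8 and 13 near an end or start. The share near an end or start was 15.1%, 14.9%, 20.0% and 16.2% in Kbu, against 17.0%, 17.4%, 21.2% and 20.0% in the windows of all genes, and so lay slightly below it in all 4 lists. In Kac it was 15.7%, 11.02%, 7.34% and 14.3%, against 10.8%, 12.1%, 11.8% and 13.1%. Positions below are given from the lower-coordinate end of the gene, which for Scnn1b, Car4 and Aqp8 is also the RefSeq start. The windows of all but Slc26a3 and Car2 reached another annotated gene, which was Pde6a and Gm52353 at Slc26a2, Exoc3 and Gm41003 at Slc9a3, Ltbr and Tnfrsf1a at Scnn1a, and Cog7 at Scnn1b. It was Gm16399 at Car1, Gm32917 at Car4, Zkscan2 at Aqp8, and Krt12 and A830036E02Rik at Krt20.

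A region was counted as shared when the regions of both replicates of a mark overlapped by at least 1 bp. H3K18bu had a shared region at 7 of the 10 genes, against 20.5% of all genes. H4K12bu had one at 4 of the 10, against 33.7% of all genes. H3K18ac had one at 8 of the 10, against 58.7%, and H4K12ac at 7 of the 10, against 61.4%. With all regions counted, H3K18bu was thus the mark for which the colonocyte genes stood farthest above the share of all genes. For H4K12bu and H4K12ac the 2 shares lay near each other in this setting. Without regions inside other protein-coding genes, a setting chosen after seeing the data, 3 of 10 and 7 of 10 had one. This filter emptied the bodies of all genes but the 10, so no share of all genes can be set beside these counts. The shared regions numbered 13 for H3K18bu, 8 for H4K12bu, 29 for H3K18ac and 18 for H4K12ac. The lower of the 2 pileups was 1 in 12 of the 13 H3K18bu regions and in 7 of the 8 H4K12bu regions. It was 1 in 1 of the 29 H3K18ac regions and in 0 of the 18 H4K12ac regions. With a pileup of at least 2 asked of both replicates, H3K18bu and H4K12bu kept 1 gene each, against 3.84% and 8.33% of all genes, and H3K18ac and H4K12ac kept 7 each, against 45.0% and 58.2%.

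**Figure D2:**
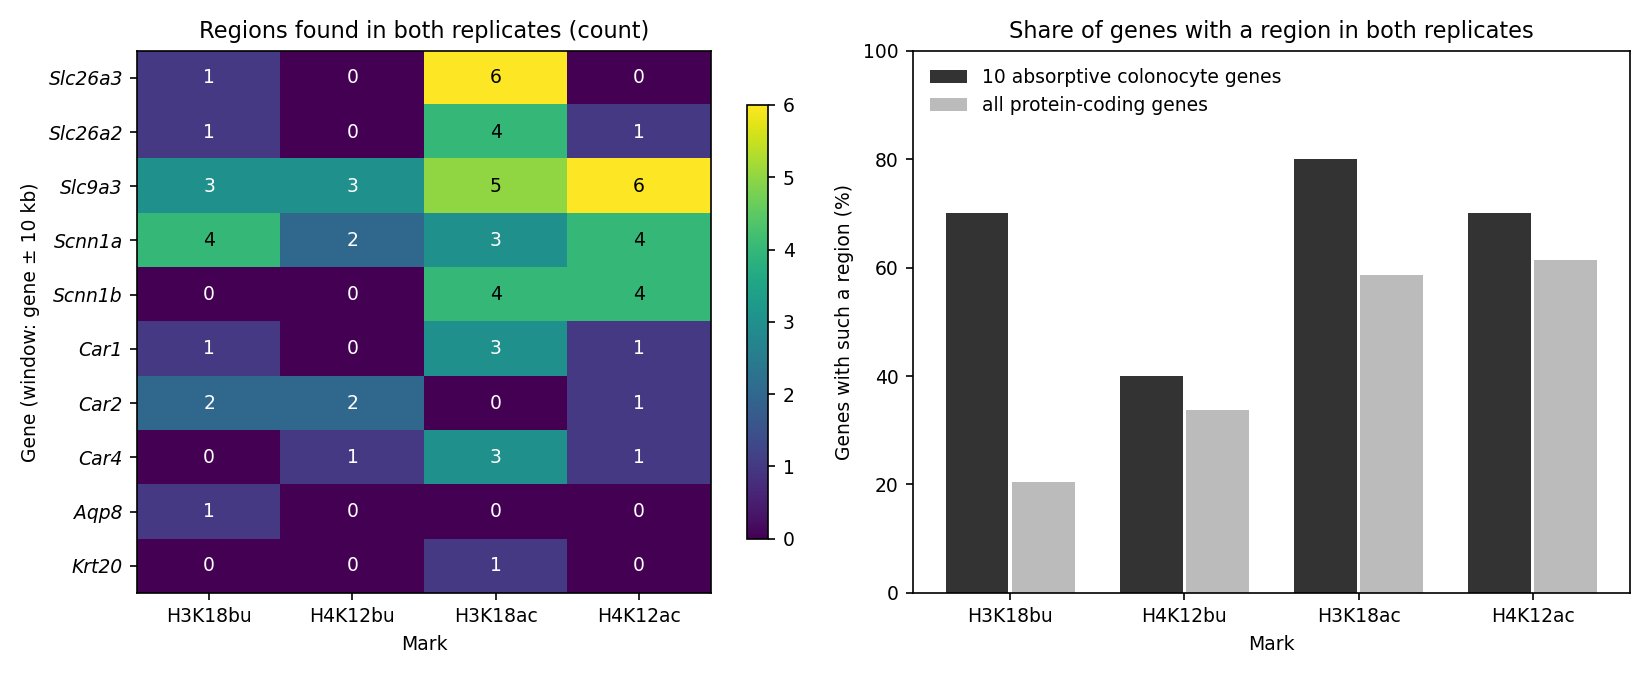
Left, number of regions found in both replicates of each mark (columns) at each gene (rows). Right, share of genes in percent with at least 1 such region, for the 10 colonocyte genes (dark bars) and all 21887 protein-coding genes (light bars); the H3K18bu bars stand at 7 of 10 genes against 20.5%.

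The sodium and proton exchanger gene Slc9a3 (chr13:74086255-74169442) had the longest window, 103 kb, and the most shared regions. It held 12 and 12 regions in H3K18bu, 6 and 15 in H4K12bu, 22 and 31 in H3K18ac and 24 and 18 in H4K12ac. The highest pileups were 1 and 4 in H3K18bu, 2 and 2 in H4K12bu, 8 and 9 in H3K18ac and 6 and 9 in H4K12ac. Shared regions numbered 3 for H3K18bu, 3 for H4K12bu, 5 for H3K18ac and 6 for H4K12ac, so that all 4 marks were present in replicate. The annotated gene begins 35.2 kb ahead of the start given in the RefSeq promoter table, and the strongest Kbu regions lay in that upstream stretch.

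At Slc9a3, regions of all 4 Kbu lists met in 2 stretches. At chr13:74102078-74102433, 356 bp wide and 15.8 kb into the gene, the pileups were 1 and 4 in H3K18bu and 1 and 2 in H4K12bu. The same stretch had pileups of 8 and 9 in H3K18ac and 2 and 4 in H4K12ac, so that it was found in all 8 libraries. At chr13:74104254-74104811, 558 bp wide and 17.999 kb into the gene, the Kbu pileups were 1 and 3 in H3K18bu and 2 and 1 in H4K12bu. No Kac list had a row in this second stretch. Another shared place, 80.5 kb into the gene, had pileups of 1 and 2 in H4K12bu, 4 and 2 in H3K18ac and 6 and 9 in H4K12ac, and no H3K18bu row.

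Slc26a3 (chr12:31433142-31473922) encodes the chloride and bicarbonate exchanger of the colon surface. It held 5 and 2 regions in H3K18bu, 1 and 8 in H4K12bu, 10 and 16 in H3K18ac and 16 and 10 in H4K12ac. Pileups reached 4 and 3 in H3K18bu, 1 and 2 in H4K12bu, 6 and 7 in H3K18ac and 3 and 4 in H4K12ac. Its H3K18bu region at chr12:31458480-31458905, 25.3 kb into the gene, was the only Kbu region at the 10 genes with a q below 0.05 in both replicates. The fold over local background there was 4.597 and 3.78, with a −log10 p of 7.40 and 6.33. H3K18ac had pileups of 4 and 6 and H4K12ac replicate 1 a pileup of 3 at the same place, while neither H4K12bu list nor H4K12ac replicate 2 had a row. H3K18ac had 6 shared regions at this gene and H4K12ac none.

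The sulfate transporter gene Slc26a2, 14.7 kb long, held 5 and 4 regions in H3K18bu, 2 and 6 in H4K12bu, 13 and 8 in H3K18ac and 4 and 3 in H4K12ac. At their summits these reached 3 and 1 in H3K18bu, 1 and 1 in H4K12bu, 5 and 8 in H3K18ac and 3 and 4 in H4K12ac. The shared H3K18bu region, 374 bp wide, began 14.4 kb from the lower-coordinate end and so crossed the higher end of the gene. Pileups there were 2 and 1 in H3K18bu and 4 and 4 in H3K18ac. The H3K18 lists and not the H4K12 lists carried the larger counts at this gene for Kac, with 4 shared H3K18ac regions against 1 for H4K12ac.

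Of the 3 genes of the epithelial sodium channel, Scnn1a alone held shared Kbu regions. Scnn1g, the gamma subunit, had 2 shared H3K18ac regions, no shared region of another mark, and a mean of 0.0925 Kbu regions per 10 kb. Scnn1a (chr6:125314271-125344943), the alpha subunit, held 9 and 14 regions in H3K18bu, 5 and 18 in H4K12bu, 10 and 14 in H3K18ac and 15 and 21 in H4K12ac. Its highest pileups were 2 in each of the 4 Kbu lists, 4 and 8 in H3K18ac and 4 and 5 in H4K12ac. At 2.27 ± 1.12 Kbu regions per 10 kb (SD, n = 4) it had the highest density of the 10 genes, at the 99.2 percentile of all genes, and its 4 shared H3K18bu regions were the most of any of the 10.

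The stretch at Scnn1a found in all 4 Kbu lists, chr6:125312586-125312967, was 382 bp wide and began at −1.69 kb from the lower-coordinate end of the gene. The pileup was 1 in each Kbu list, 4 and 6 in H3K18ac, and 3 in H4K12ac replicate 1, with no row in H4K12ac replicate 2. This stretch lies inside the neighbouring gene Ltbr, a receptor of the TNF family that ends at −0.386 kb, and Tnfrsf1a, another such receptor, begins 35.5 kb from the same end. A second shared H4K12bu region with a pileup of 2 in both replicates lay at 35.3 kb, across the end of Tnfrsf1a that is nearer to Scnn1a. The window of Scnn1a therefore held regions that lie in or next to other genes.

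Scnn1b (chr7:121865038-121918728), the beta subunit, held 9 and 1 regions in H3K18bu, 3 and 6 in H4K12bu, 15 and 12 in H3K18ac and 11 and 14 in H4K12ac. The highest pileup was 1 in all 4 Kbu lists, 5 and 6 in H3K18ac and 5 and 4 in H4K12ac. It had no shared region of either Kbu mark and 4 of each Kac mark. Its Kbu density was 0.645 ± 0.475 regions per 10 kb and its Kac density 1.76 ± 0.248 (SD, n = 4 libraries each).

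Carbonic anhydrases convert carbon dioxide and water to bicarbonate and protons. Car2 (chr3:14886269-14900770), a cytosolic enzyme, held 3 and 4 regions in H3K18bu, 3 and 6 in H4K12bu, 6 and 6 in H3K18ac and 5 and 11 in H4K12ac. Summit pileups reached 2 and 1 in H3K18bu, 1 and 5 in H4K12bu, 8 and 6 in H3K18ac and 3 and 5 in H4K12ac. The pileup of 5 in H4K12bu replicate 2, with a fold of 5.24 and a −log10 p of 7.93, was the highest of any Kbu region at the 10 genes.

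At Car2 the Kbu regions gathered at the lower-coordinate end. The stretch chr3:14886460-14887015, 556 bp wide and 0.191 kb inside that end, had pileups of 2 and 1 in H3K18bu and 1 and 2 in H4K12bu. H3K18ac had pileups of 3 and 6 there and H4K12ac replicate 2 a pileup of 5, with no row in H4K12ac replicate 1. A second H3K18bu region, 1.44 kb inside that end, had pileups of 2 and 1, beside 5 in H4K12bu replicate 2, 8 in H3K18ac replicate 1 and 3 and 3 in H4K12ac. The rows of the 2 H3K18ac lists did not overlap each other, so that H3K18ac had no shared region at Car2 although each list reached a pileup of at least 6.

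Car1 (chr3:14766214-14808365), another cytosolic enzyme, held 4 and 4 regions in H3K18bu, 3 and 4 in H4K12bu, 12 and 17 in H3K18ac and 2 and 5 in H4K12ac. The highest pileups were 1 and 2 in H3K18bu, 1 and 1 in H4K12bu, 4 and 6 in H3K18ac and 2 and 4 in H4K12ac. The shared H3K18bu region lay 31.0 kb from the lower end, inside the gene, with pileups of 1 and 2, and overlapped rows of all 4 Kac lists with pileups of 2, 4, 2 and 2.

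Car4 (chr11:84957754-84966054), the membrane-bound enzyme of the colonocyte surface, held 2 and 3 regions in H3K18bu, 2 and 2 in H4K12bu, 8 and 9 in H3K18ac and 14 and 6 in H4K12ac. The highest pileup was 1 in all 4 Kbu lists, 5 and 4 in H3K18ac and 2 and 4 in H4K12ac. The shared region of H4K12bu lay just past the far end of the gene, 8.57 kb from the start, with pileups of 1 and 1 and with 4 and 4 in H3K18ac. Its Kac density of 3.27 ± 1.20 regions per 10 kb (SD, n = 4) lay at the 97.9 percentile of all genes, against the 79.2 percentile for Kbu.

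The water channel gene Aqp8 (chr7:123462294-123468003) held 2 and 1 regions in H3K18bu, 3 and 2 in H4K12bu, 2 and 4 in H3K18ac and 1 and 3 in H4K12ac. In pileup it reached 1 and 1 in H3K18bu, 3 and 3 in H4K12bu, 3 and 4 in H3K18ac and 2 and 3 in H4K12ac. Both H4K12bu pileups of 3 passed a q of 0.05, but they lay apart, at −226 to −29 bp from the start in replicate 1 and at −2785 to −2467 bp in replicate 2. The second place also held the shared H3K18bu region, with a pileup of 1 in each replicate, and no Kac list had a row there. Aqp8 had no shared Kac region, and its Kac density lay at the 27.6 percentile of all genes, the lowest of the 10.

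Krt20 (chr11:99428385-99438153), an intermediate filament keratin of mature surface cells, held 2 and 2 regions in H3K18bu, 7 and 1 in H4K12bu, 4 and 10 in H3K18ac and 17 and 0 in H4K12ac. The highest pileups were 1 and 2 in H3K18bu, 2 and 1 in H4K12bu, 4 and 3 in H3K18ac and 1 and 0 in H4K12ac. Of the 7 H4K12bu regions of replicate 1, 5 were 73 bp wide, and the same was so for 13 of the 17 H4K12ac regions of replicate 1. A pileup of 1 was the height of 6 of these 7 and of all 17 regions. H3K18ac had 1 shared region, and the other 3 marks had none.

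**Figure D3:**
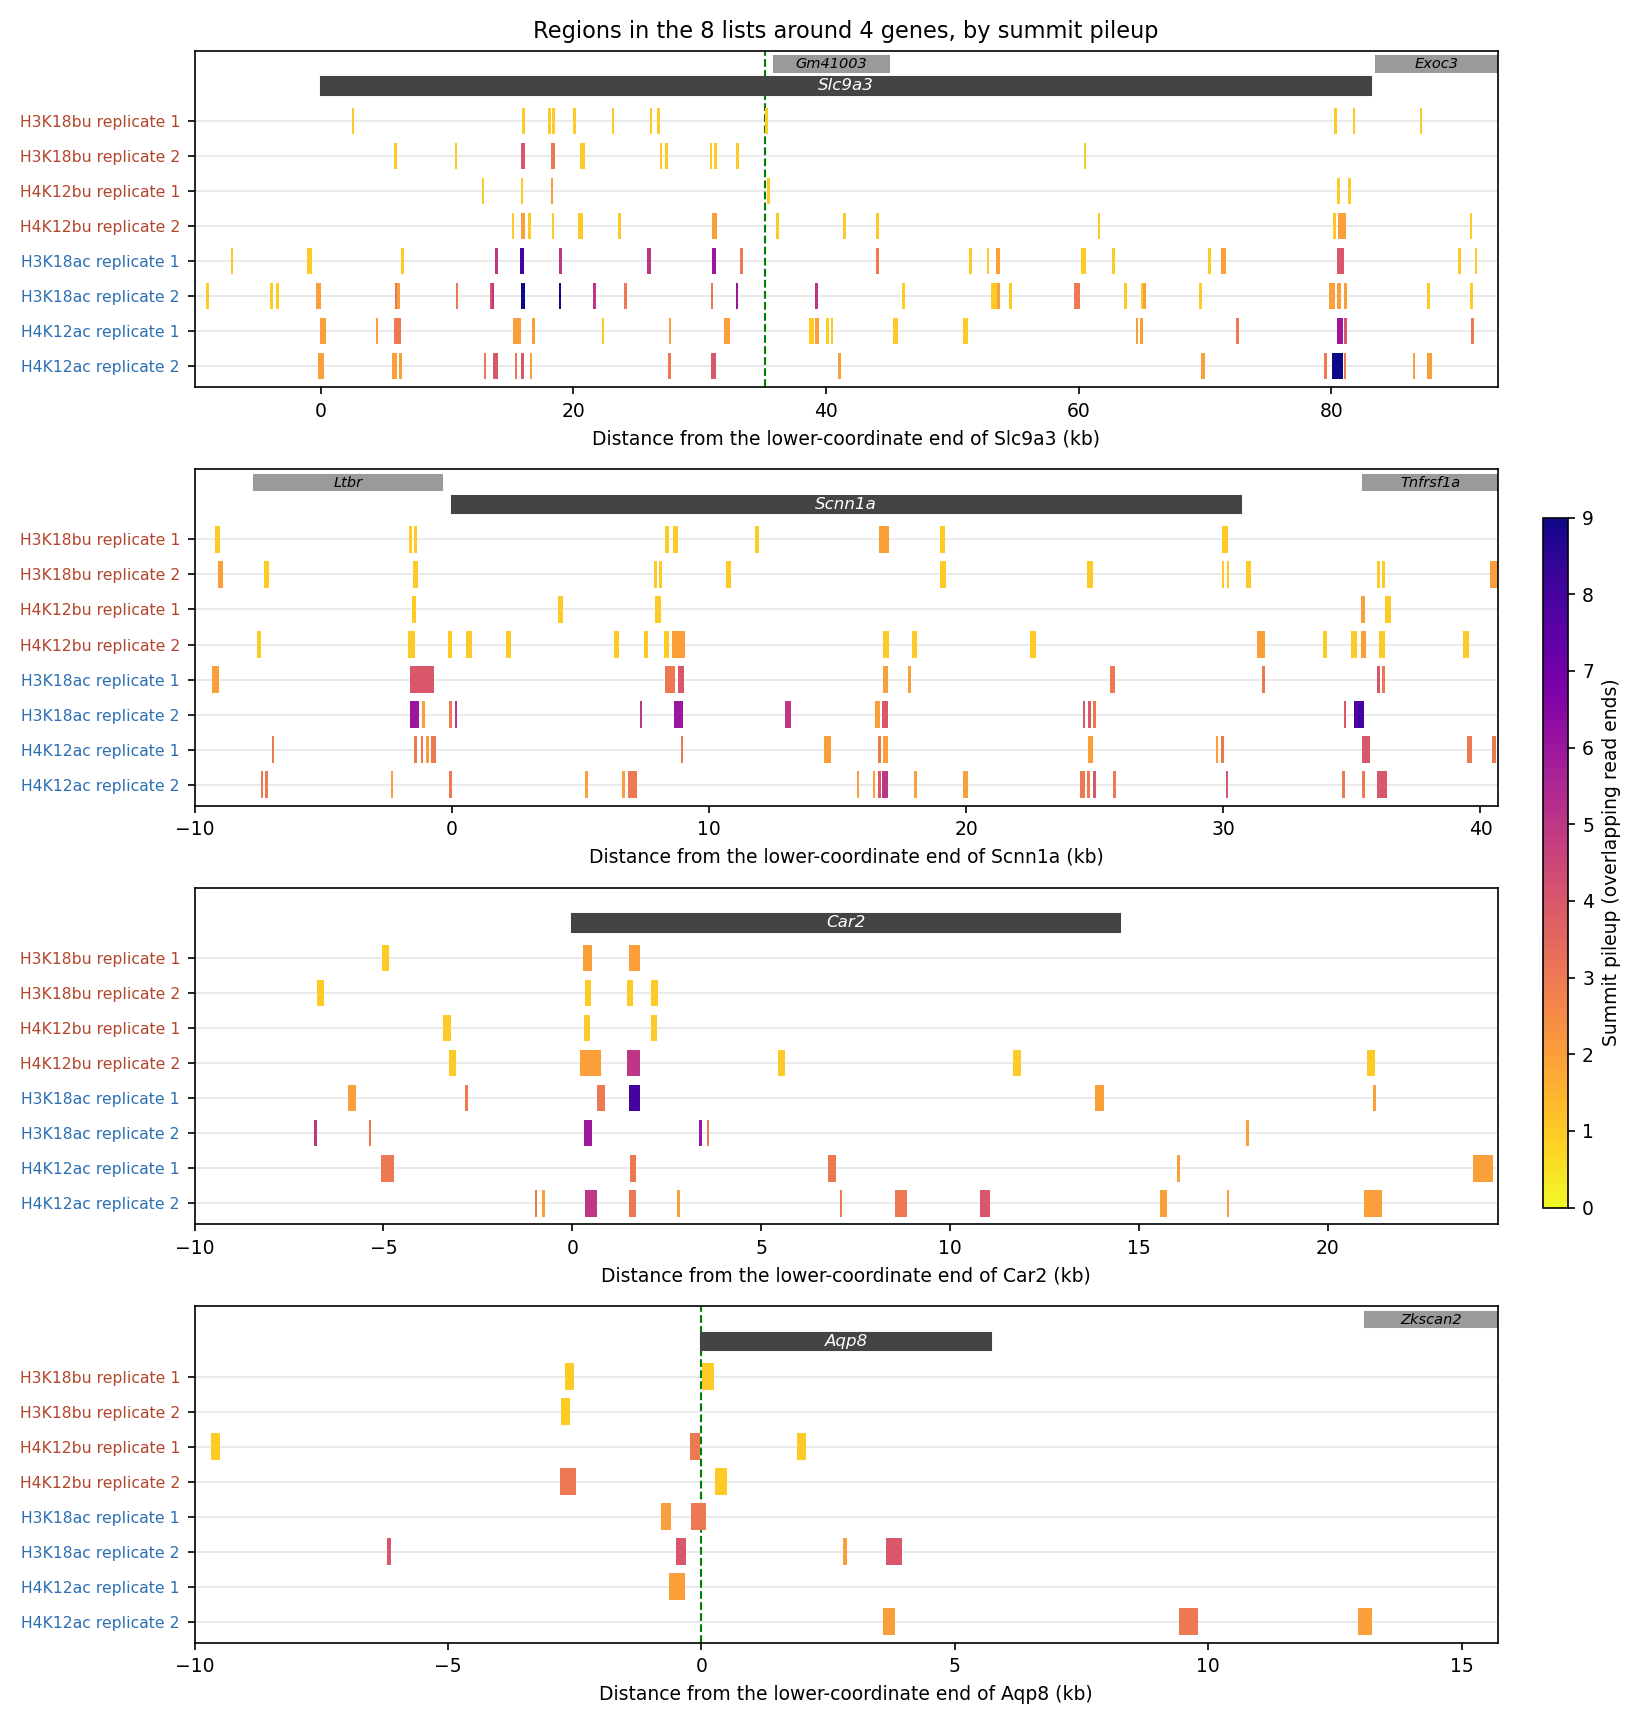
Regions of the 8 libraries (rows; Kbu names in red, Kac names in blue) around Slc9a3, Scnn1a, Car2 and Aqp8, against distance in kb from the lower-coordinate end of the gene; colour gives the summit pileup in overlapping read ends, capped at 9, dark bars the gene, grey bars neighbouring genes and the dashed line the RefSeq start where the table has one. Regions of all 4 Kbu lists line up at 15.8 and 17.999 kb in Slc9a3, at −1.69 kb at Scnn1a and at 0.191 kb in Car2.

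In all, 3 of the 10 genes (Slc9a3, Scnn1a and Car2) held a stretch found in all 4 Kbu lists, against 9.08% of all genes, and they held 4 such stretches together. Of the 4, 3 had a Kac row, and over the genome 96.8% of 2346 such stretches had one. Counted over the joined Kbu regions of the 10 windows, 125 stretches came from 1 Kbu list, 24 from 2, 3 from 3 and 4 from 4. The share from 1 list was 80.1%, against 85.3% over the windows of all genes.

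The sequences before the start are shown for the 4 genes in which a Kbu region of any list reached into the 250 bases ahead of the RefSeq start, a choice made after the values were seen, since no shared Kbu region lay there. Capitals mark the bases inside that Kbu region, and each run is written from its 5′ end to the base before the start (RefSeq, GRCm38.p6). For Aqp8 (chr7:123462044-123462293, plus strand) the region was that of H4K12bu replicate 1 with a pileup of 3. For Krt20 (chr11:99438154-99438403, minus strand) it was that of H3K18bu replicate 2 with a pileup of 2. For Car4 (chr11:84957504-84957753, plus strand) and Scnn1b (chr7:121864788-121865037, plus strand) the pileup was 1, in H3K18bu replicate 1 and H4K12bu replicate 2. H3K18ac replicate 1 had a region over the same bases at Aqp8, Krt20 and Car4, with pileups of 3, 4 and 4, and no Kac list had one at Scnn1b.
Aqp8: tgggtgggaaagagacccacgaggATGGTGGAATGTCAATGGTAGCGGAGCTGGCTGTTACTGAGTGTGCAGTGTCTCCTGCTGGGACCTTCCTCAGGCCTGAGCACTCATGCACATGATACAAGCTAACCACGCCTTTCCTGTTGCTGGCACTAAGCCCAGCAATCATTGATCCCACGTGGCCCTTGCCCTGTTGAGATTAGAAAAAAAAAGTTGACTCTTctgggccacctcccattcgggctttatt
Krt20: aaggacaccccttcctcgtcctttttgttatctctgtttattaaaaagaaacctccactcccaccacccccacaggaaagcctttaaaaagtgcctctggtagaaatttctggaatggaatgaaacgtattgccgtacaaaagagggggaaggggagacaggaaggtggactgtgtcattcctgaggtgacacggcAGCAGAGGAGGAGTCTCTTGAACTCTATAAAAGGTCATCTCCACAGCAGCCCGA
Car4: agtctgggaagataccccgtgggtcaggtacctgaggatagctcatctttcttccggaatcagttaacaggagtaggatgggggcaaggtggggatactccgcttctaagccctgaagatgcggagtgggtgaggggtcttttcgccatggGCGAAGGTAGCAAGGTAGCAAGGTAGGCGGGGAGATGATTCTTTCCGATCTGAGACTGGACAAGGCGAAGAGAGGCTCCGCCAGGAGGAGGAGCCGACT
Scnn1b: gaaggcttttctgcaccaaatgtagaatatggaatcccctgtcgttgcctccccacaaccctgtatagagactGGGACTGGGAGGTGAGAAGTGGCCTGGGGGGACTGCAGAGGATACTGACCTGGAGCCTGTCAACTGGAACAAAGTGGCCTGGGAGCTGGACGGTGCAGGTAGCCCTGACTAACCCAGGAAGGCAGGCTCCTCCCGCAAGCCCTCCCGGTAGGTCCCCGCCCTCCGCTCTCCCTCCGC

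Promoter entries were matched for 6 of the 10 genes, the 4 above with Slc26a3 and Slc9a3. On both strands of these 250 bases 6 motifs were searched. They were TATAAA of the core promoter, TTTATNG for the CDX family, CAAAGTNCA for HNF4, AGATAA for the factor family named after it, GGGCGG for SP and KLF factors and TGANTCA for the AP-1 dimers. In Krt20, TATAAA lay at −29 and TTTATNG on the other strand at −30, sharing bases, both inside the Kbu region, and AGATAA at −223 outside it. In Scnn1b, GGGCGG lay at −22 on the minus strand, inside the Kbu region. Slc26a3 held TATAAA at −30, Slc9a3 held GGGCGG at −71, −58 and −16, and Car4 and Aqp8 held none of the 6. Of all 32851 promoters of the table, 12.4% held TATAAA, 9.81% TTTATNG, 1.19% CAAAGTNCA, 9.99% AGATAA, 32.7% GGGCGG and 6.75% TGANTCA. GC made up 60.8% of the printed bases in Scnn1b, 56.4% in Car4, 52.4% in Aqp8 and 48.0% in Krt20, with a median of 52.4% over all promoters.

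The study set Kbu against Kac, and the share of Kbu regions that lay on a Kac row of the same residue was measured first. At the 10 genes 47 of 100 H3K18bu regions overlapped an H3K18ac row, 47.0% with an exact 95% interval of 36.9% to 57.2%, against 39.6% in the windows of all genes. For H4K12 it was 35 of 103 regions, 34.0% with an interval of 24.9% to 44.0%, against 35.8%. The share of all genes lay inside both intervals, which cover counting error only. Without H3K18ac replicate 1 the share was 31.0% for H3K18, against 26.7% over all windows, and without H4K12ac replicate 2 it was 18.4% for H4K12, against 19.03%. With all libraries the share was higher among regions of higher pileup. Of H3K18bu regions with a pileup of 1, 40.7% lay on an H3K18ac row, against 35.7% over all windows. Of those with at least 2 it was 12 of 14, or 85.7%, against 75.2%. For H4K12bu the values were 29.2%, against 31.4%, and 9 of 14, or 64.3%, against 70.0%. Of the shared regions, 8 of 13 H3K18bu regions (61.5%) and 5 of 8 H4K12bu regions (62.5%) lay on such a row, both below the 75.2% and 70.3% over all windows.

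Between genes this overlap varied. At Car2 5 of 7 H3K18bu regions lay on an H3K18ac row, and at Slc26a2 5 of 9. At Scnn1a 11 of 23 H3K18bu regions and 12 of 23 H4K12bu regions lay on an acetyl row of their residue, and at Slc9a3 10 of 24 and 10 of 21. At Slc26a2, Car4 and Aqp8 none of the 8, 4 and 5 H4K12bu regions lay on an H4K12ac row.

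To compare Kbu with Kac at each gene, regions were expressed per 10000 regions of the same library, which scales for the length of the list. Over all genes the median was then 0.269 in Kbu and 0.201 in Kac. What the cut of the longer Kac lists does to this measure at single genes was not tested. The 4 Kbu libraries were set against the 4 Kac libraries in a two-sided exact permutation test over 70 assignments, whose smallest possible p is 0.0286. With 2 mice per condition the 2 marks of an acyl group may come from the same animals, and the test and the SD over 4 libraries then overstate the number of independent samples. With 2 against 2 the smallest possible p is 0.333. All 10 genes had the higher mean in Kbu, as did 56.4% of all genes. In 4 of the 10, Slc9a3, Scnn1a, Car2 and Aqp8, every Kbu library lay above every Kac library, against 11.2% of all genes. The same was so for 5 of the 8 pan-epithelial genes described below, and for 20 of 47 further colonocyte genes, among them 10 of 16 identity genes (Vil1 is in both lists). Of the other marker lists below it was so for 2 of 8 goblet cell genes and 0 of 8 immune genes. For stem and crypt, smooth muscle and other organs it was so for 1 of 8 genes each. In 1 smooth muscle gene every Kbu library lay below every Kac library. In none of the 10 did every Kbu library lie below every Kac library, against 3.5% of all genes. The 4 genes had p = 0.0286 each, and 0.195 after Benjamini-Hochberg adjustment of these exact permutation p-values over all genes. By this exact permutation test 0 of the 21887 genes reached an adjusted p below 0.05, while 3209 had an unadjusted p below 0.05.

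Scnn1a had 1.48 and 2.76 regions per 10000 in H3K18bu and 0.982 and 1.87 in H4K12bu, against 0.335, 0.469, 0.501 and 0.705 in the Kac libraries. The means were 1.77 ± 0.753 and 0.503 ± 0.153 (SD, n = 4 each), a difference of 1.27. Slc9a3 had 1.97, 2.37, 1.18 and 1.56 in Kbu and 0.737, 1.04, 0.801 and 0.605 in Kac, with means of 1.77 ± 0.515 and 0.795 ± 0.182. These were the largest differences of the 10 genes, and in both the lowest Kbu library was H4K12bu replicate 1.

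Car2 had 0.494, 0.790, 0.589 and 0.623 in Kbu and 0.201, 0.201, 0.167 and 0.369 in Kac, with means of 0.624 ± 0.123 and 0.235 ± 0.0913. Aqp8 had 0.329, 0.197, 0.589 and 0.208 in Kbu and 0.0670, 0.134, 0.0334 and 0.101 in Kac, with means of 0.331 ± 0.182 and 0.0838 ± 0.0433. Behind the Aqp8 values stood only 1 to 4 regions per library. In the remaining 6 genes the libraries overlapped, with p from 0.0571 in Slc26a2 and Car1 to 0.514 in Car4 (exact permutation tests), and the differences ran from 0.0708 in Car4 to 0.423 in Slc26a2. Among these 6 the widest spread within Kbu was at Krt20, 0.551 ± 0.563, where H4K12bu replicate 1 stood at 1.38.

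In the gene body alone, 4 genes again had every Kbu library above every Kac library, against 11.4% of all genes without overlap in either direction, but they were Slc9a3, Car2, Car1 and Car4. The difference was then 0.657 in Scnn1a and 0.0827 in Aqp8, where the libraries overlapped (exact permutation p = 0.0571 and 0.143), and 0.395 in Car1 and 0.0986 in Car4 (exact permutation p = 0.0286 each). The call at Scnn1a and Aqp8 thus rested in part on regions outside the gene.

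With only regions of pileup 2 or more, 7 of the 10 genes had the higher mean in Kbu and 3 the lower. The Kbu values then rested on few regions, with 1, 2, 1 and 3 in Scnn1a, 0, 2, 1 and 3 in Slc9a3, 2, 0, 0 and 2 in Car2 and 0, 0, 1 and 1 in Aqp8. The differences, 1.75 in Scnn1a, 1.28 in Slc9a3, 0.818 in Car2 and 0.637 in Aqp8, are per 10000 of these fewer regions and cannot be set against those with all regions. Scnn1a still had all Kbu libraries above all Kac libraries per 10000, although its Kac libraries held more such regions, 10, 14, 15 and 21. In Slc9a3, Car2 and Aqp8 the libraries overlapped (exact permutation p = 0.200, 0.429 and 0.429). Scnn1b and Car4 held 0 such regions in all 4 Kbu libraries and so lay below every Kac library by a count of 0. The count of genes without overlap was thus 3 of 10, against 26.2% of all genes. With only regions of q below 0.05, the difference was 4.29 in Slc26a3, 3.86 in Aqp8, 1.88 in Slc9a3 and 0.716 in Car2, and negative in the other 6 genes. Scnn1a and Scnn1b held 0 such regions in all 4 Kbu libraries and again lay below every Kac library by a count of 0, which gave 2 of 10 genes without overlap against 9.76% of all genes. The 4 Kbu libraries held 1, 2, 1 and 2 such regions over all 10 genes, so that these differences rested on a few regions each.

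**Figure D4:**
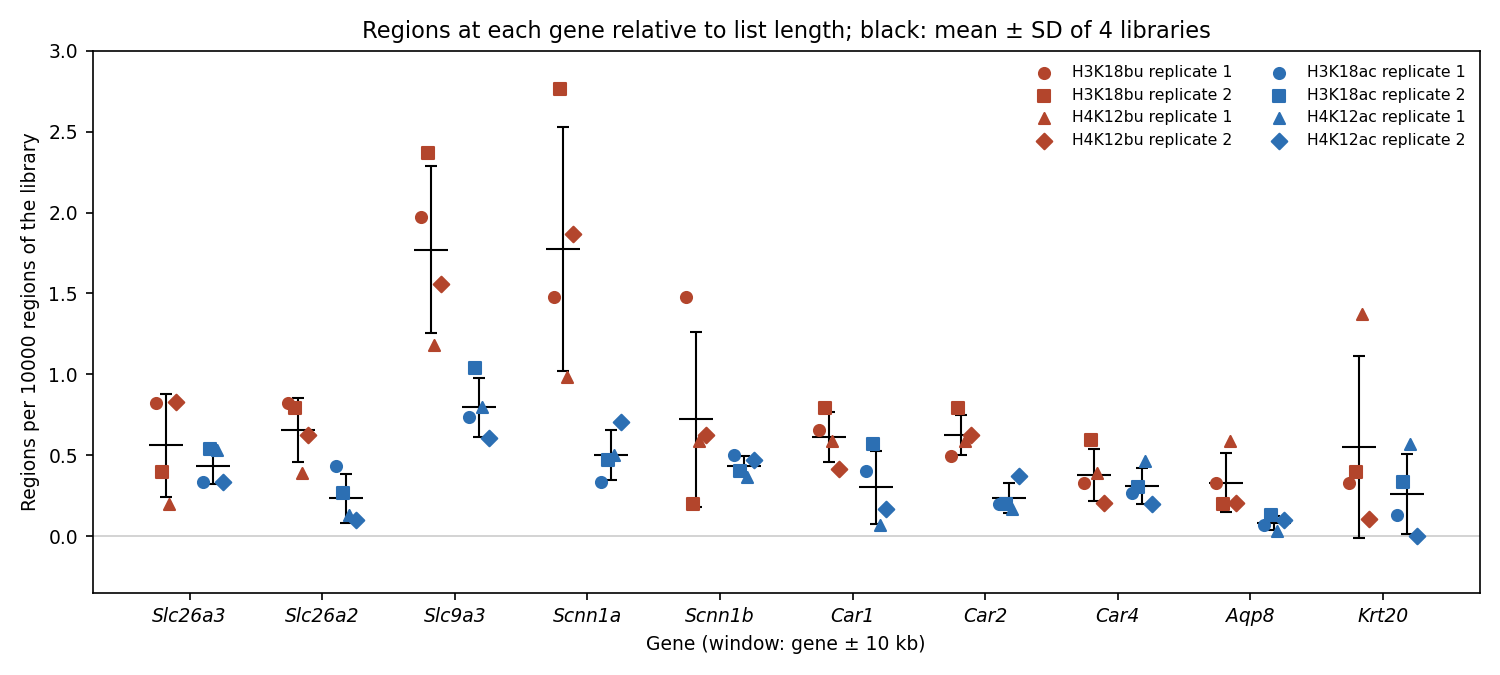
Regions at each gene (window of the gene ± 10 kb) per 10000 regions of the library, for the 4 Kbu (red) and 4 Kac (blue) libraries; black bars give the mean ± SD of 4 libraries. The red points lie above all blue points in Slc9a3, Scnn1a, Car2 and Aqp8 and overlap them in the other 6 genes.

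Markers of other cells of the gut wall were counted in the same way, since the tissue was not sorted. Regions at the 8 pan-epithelial genes (Epcam, Cdh1, Vil1, Krt8, Krt18, Krt19, Cldn3 and Cldn7) summed to 54, 52, 29 and 48 in the Kbu libraries and 58, 57, 47 and 53 in the Kac libraries. Their median per 10 kb was 1.86, 1.73, 1.14 and 1.84 in Kbu, above that of the absorptive genes in every Kbu library. Krt8 had the highest Kbu density among them, 2.53 regions per 10 kb. Shared regions were found at 7, 6, 8 and 7 of the 8 genes for H3K18bu, H4K12bu, H3K18ac and H4K12ac.

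The 8 smooth muscle genes held 15, 10, 20 and 34 regions in Kbu and 116, 131, 130 and 123 in Kac. Lmod1 was highest in Kac with 4.23 regions per 10 kb and had 0.119 in Kbu, and Cnn1 was highest in Kbu with 0.667. Shared regions were found at 1, 3, 7 and 7 of these 8 genes. The 8 immune genes held 11, 15, 4 and 18 regions in Kbu and 68, 65, 78 and 120 in Kac, with shared regions at 1, 0, 4 and 5 of them. Ptprc was highest in Kac with 3.12 regions per 10 kb, Cd79a was highest in Kbu with 0.821, and Cd3e was at 0 in Kbu. Per 10 kb, the muscle genes had medians of 0.164, 0, 0.372 and 0.631 in Kbu, above those of all genes in 2 of the 4 Kbu libraries, and of 2.28, 2.18, 1.47 and 1.85 in Kac, above those of all genes in each Kac library. The immune genes had medians of 0, 0, 0 and 0.427 in Kbu, below those of all genes in each Kbu library, and of 2.06, 1.00, 1.17 and 1.34 in Kac, above those of all genes in 2 of the 4 Kac libraries. The part of these cells in the difference at the colonocyte genes was not tested.

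Among epithelial cell types, the 8 goblet cell genes had shared regions at 0, 2, 2 and 3 of them in the same order of marks, and the 8 stem and crypt genes at 3, 4, 7 and 5. The goblet genes held 21, 17, 9 and 20 regions in Kbu and 63, 50, 22 and 42 in Kac. Zg16, Spink4 and Spdef had no shared region of any mark. The stem and crypt genes held 42, 38, 36 and 75 regions in Kbu and 145, 178, 158 and 138 in Kac, and Olfm4 was at 0 in Kbu. The 8 genes of liver, brain, heart and pancreas had shared regions at 0, 2, 3 and 2 of them, with Alb and Neurod6 at 0 in Kbu. The absorptive genes, with 7, 4, 8 and 7 of 10, therefore lay between the pan-epithelial list and the goblet list in H3K18bu. In H4K12bu their 40% lay below the 50% of the stem and crypt genes and near the 37.5% of the smooth muscle genes. Per 10 kb, the stem and crypt genes had Kbu medians of 0.429, 0.478, 0.374 and 1.09, in windows with a median of 72.7 kb. The goblet genes had 0.581, 0.529, 0.309 and 0.627, in windows with a median of 33.9 kb.

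**Figure D5:**
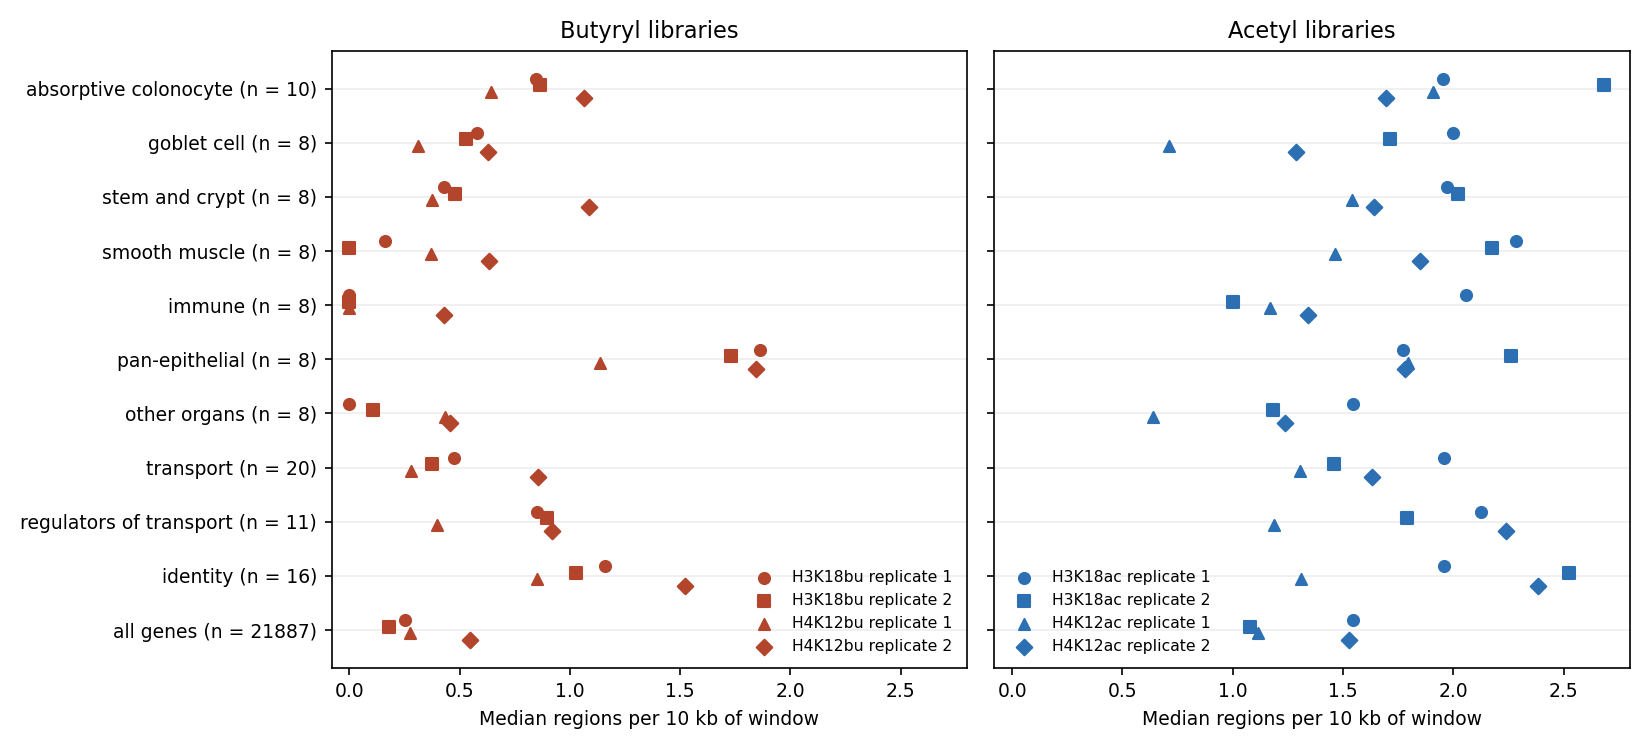
Median number of regions per 10 kb of window in each library (points; Kbu left, Kac right) for the absorptive colonocyte genes, 6 other marker lists, 3 lists of colonocyte genes and all protein-coding genes. In Kbu the pan-epithelial list lies highest in each library and the immune list lowest or tied for lowest.

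Other genes of colonocyte transport and identity, 47 in all, had shared regions at 27, 26, 40 and 39 of them for H3K18bu, H4K12bu, H3K18ac and H4K12ac. These are 57.4%, 55.3%, 85.1% and 83.0%, against 20.5%, 33.7%, 58.7% and 61.4% of all genes. Their windows had a median of 45.9 kb against 37.2 kb, and a longer window has more room for a shared region. Among 20 transport genes, with a median window of 51.3 kb, the counts were 7, 10, 15 and 17, or 35%, 50%, 75% and 85%. Slc16a1, the monocarboxylate transporter that carries butyrate, had 5, 3, 5 and 1 shared regions in that order of marks, in a window of 39.8 kb. Slc5a8, the sodium-coupled carrier of butyrate, named after its values were seen, had 0, 0, 0 and 3 in a window of 63.5 kb, with 0.236 Kbu regions per 10 kb. Cftr, the chloride channel of the crypt, had 2, 3, 7 and 6 in a window of 172 kb. Atp1b1, the beta subunit of the sodium pump, had 2, 2, 3 and 3, and the potassium channel genes Kcnq1 and Kcnn4 had 6, 5, 10 and 10 and 1, 2, 2 and 3, the former in a window of 340 kb. Slc26a6, an anion exchanger, and Atp12a, the proton and potassium pump of the colon, had none of any mark.

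The 11 regulators of transport, with a median window of 61.5 kb, had shared regions at 8, 7, 10 and 10 of them. These are 72.7%, 63.6%, 90.9% and 90.9%. Guca2a, the hormone guanylin, had 4, 1, 1 and 2, and Sgk1, the aldosterone-induced kinase that raises channel activity, had 2, 1, 8 and 4 in a window of 138 kb. The 16 identity genes, with a median window of 41.5 kb, had shared regions at 12, 9, 15 and 12 of them, or 75%, 56.2%, 93.8% and 75%. The intestinal homeobox gene Cdx1 had 7, 3, 1 and 2 in a window of 37.3 kb, and 4 stretches found in all 4 Kbu lists. Cdx2, its relative, had 3, 2, 3 and 1, and Hnf4a, a nuclear receptor of enterocyte genes, had 2, 3, 6 and 2 in a window of 86.1 kb. Cdx1 thus held more shared H3K18bu regions than any of the 10 absorptive genes, and at 3.88 regions per 10 kb in Kbu it exceeded Scnn1a.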

How the data were processed

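Reads were made and processed by the authors: by the methods and the submitters' processing notes, paired reads were demultiplexed (bcl2fastq 2.17.1), trimmed (cutadapt 1.9.1), aligned to mm10 (Bowtie2 2.3.1) and run through the ENCODE ATAC-seq pipeline with MACS2 2.1.0. The authors deposited 1 list per library, called at p 0.01 without a control library, cut at 300000 rows and cleared of artifact regions. In column 7 the authors deposited the fold ratio, (pileup + 1) / (local background + 1). They also deposited −log10 p and −log10 q from the Poisson test of the pileup against that background. The lists hold no read counts per gene, so the authors' read-based comparison was not repeated.

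Pileup and background were solved from fold and −log10 p, and the pileup came out whole in 100% of rows, with a misfit in −log10 p of at most 0.01. Overlapping rows of a list were merged to regions. Genes were RefSeq GRCm38.p6, which shares its coordinates with mm10, and windows added 10 kb. Overlap meant at least 1 bp. Regions per 10000 were compared by the exact permutation test with Benjamini-Hochberg adjustment over 21887 genes. The overlap and test code was checked on simulated data. The 10 genes, the marker lists and the tests were chosen with earlier results of these data known. The rule for named genes took the 10, their neighbours in the windows, and at most 12 further colonocyte genes with a shared region of at least 3 marks or of none. Scnn1g, Slc5a8 and single genes of the marker lists, those highest or at 0, were named after their values were seen. Nothing in the labels ties libraries to animals, so p-values measure the spread between libraries, which may be technical. The labels name arabinoxylan for the Kbu libraries only, while the methods describe it for the whole diet group, so diet follows the labels here. Python 3.11.15, numpy 2.4.6, pandas 2.3.3, scipy 1.17.1 and bedtools 2.31.1 were used. The 4 lists of CCD841 cells were not used here.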

Additional observations from a re-analysis of the deposited data

Results flagged for a closer look

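At Car2, H4K12ac replicate 2 stood apart from the other 3 Kac libraries, with 0.369 regions per 10000 against 0.167 to 0.201. Its gap to the next library was 0.831 of the range of the 4 libraries, and about 1 in 20 groups is expected to stand out in this way by chance. That library held 11 regions at Car2, all with a pileup of at least 2. The difference between Kbu and Kac at Car2 had the same direction without this library.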

How the results depend on the processing

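The number of genes with a shared region depended on how weak a region may be. With a q below 0.05 in both lists it was 1 for H3K18bu, 0 for H4K12bu, 5 for H3K18ac and 2 for H4K12ac, against 0.498%, 1.70%, 16.5% and 16.8% of all genes. With a pileup of at least 2 it was 1 and 1 for the Kbu marks, against 3.84% and 8.33%. It was 2 for H4K12bu in the gene body alone, against 23.2%, and 2 for H4K12bu and 3 for H4K12ac with the same number of strongest regions per list, against 21.9% and 24.2%. Without replicate 1 or 2, a region in the remaining list was found at 9 to 10 genes in each mark, against 58.0% to 90.8% of all genes. Windows of 5 or 25 kb, a stricter overlap and, chosen after seeing the data, leaving out regions inside other genes kept each count within 1.5 times. The comparison with all genes was less stable for H4K12bu. Its 4 of 10 genes stood against 29.7% of all genes at 5 kb and 29.3% with the stricter overlap. At 25 kb its 4 of 10 lay below the 43.02% of all genes. The counts at 25 kb were 9 for H3K18bu, 10 for H3K18ac and 9 for H4K12ac, against 27.97%, 69.9% and 72.9%. The share of H3K18bu regions on an H3K18ac row was 100% of 3 regions at q below 0.05, against 69.7% over all windows. With a pileup of 2 or more asked of both the Kbu region and the Kac row it was 85.7%, against 73.7%. It was 34.0% when 0.5 of the region had to be covered, against 27.9%. When both Kac lists had to hold the row it was 21.0%, against 14.7%, and of shared regions it was 61.5%, against 75.2%. For H4K12 these values were 0% of 3 regions, 57.1%, 18.4%, 8.74% and 62.5%, against 65.7%, 69.6%, 22.4%, 10.6% and 70.3% over all windows. Leaving out single libraries gave 31.0% to 48.9% for H3K18, lowest without H3K18ac replicate 1, against 26.7% to 40.5% over all windows. For H4K12 it gave 18.4% to 35.3%, lowest without H4K12ac replicate 2, against 19.03% to 37.8%.

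The count of genes whose Kbu and Kac libraries did not overlap was 2 at q below 0.05, both with 0 Kbu regions, and 4 to 5 without single libraries, against 9.76% and 15.9% to 20.2% of all genes. The difference in regions per 10000 turned to −0.813 in Scnn1b, −0.126 in Car1 and −0.511 in Car4 at pileup 2 or more. At q below 0.05 it turned to −0.538 in Slc26a2, −1.07 in Scnn1a, −0.917 in Scnn1b, −0.721 in Car1, −0.474 in Car4 and −0.130 in Krt20. The cause was not tested beyond the filters themselves, which leave few Kbu regions. With the replicate number as a block (replicate block), the 4 genes kept the smallest possible p, which is then 0.0556. Same-numbered libraries of different marks were not shown to be paired, with correlations of their deviations over genes between −0.367 and 0.0140. With 1 Kac library left out, the exact permutation p of Slc9a3 and Scnn1a was 0.0571 and that of Aqp8 0.0857. Their differences were then 0.911 to 1.06, 1.22 to 1.34 and 0.230 to 0.264, close to those with all libraries. Car2 kept an exact permutation p of 0.0286. All Kbu values rest mostly on regions with a pileup of 1. The lists give no read totals, so the part of depth in this was not tested.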
